A study of Mus musculus with 8 samples.

Results

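Mitosis is carried out by a set of proteins that are made mainly in dividing cells, and 60 of the genes that encode them or that decide whether a cell enters the cycle are described here. They are the mitotic kinases, the cyclins and cyclin-dependent kinases (CDKs) with 4 CDK inhibitors, the spindle assembly checkpoint, the kinetochore, the spindle and its motors, chromosome structure, and 4 transcription factors of the cell cycle. Members were chosen by gene symbol, and 60 of 60 were found among the 38392 genes of the deposited table. Each had a mean of at least 10 reads over the 8 libraries.

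During a cell cycle, D-type cyclins with CDK4 and CDK6 start the passage out of G1, E-type cyclins with CDK2 start DNA replication, and A- and B-type cyclins with CDK1 drive the cell into mitosis. The kinetochore then ties each chromosome to spindle microtubules, the checkpoint holds back anaphase until every chromosome is attached, and the anaphase-promoting complex ends mitosis by marking cyclin B and securin for degradation. Eosinophils are granulocytes that are produced from dividing progenitors in the bone marrow and leave the cycle before they enter blood and tissues, the small intestine among them.

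RNA was sequenced from cells sorted as eosinophils from the bone marrow (4 libraries) and from the small intestine (4 libraries) of young adult wildtype female mice on the C57/BL6 background (4 mice a tissue), with no treatment. The bone marrow gate was CD11b+Ly6G-Ly6C-SiglecF+SSChi and the intestinal gate was CD11b+MHC-II-SiglecF+SSChi. Intestinal tissue was stripped with EDTA, digested with collagenase and enriched on CD11b beads before sorting, which marrow was not, so tissue and handling cannot be told apart. Libraries keep the names of their columns, which for bone marrow are BM_1, BM_3, BM_4 and BM_5 and for the small intestine SI_6, SI_7, SI_10 and SI_11. Where 4 values are given for a tissue, they follow this order.

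Each library held between 11508002 and 21289164 reads, recovered as whole numbers from the deposited log2-scale values. Levels below are normalised counts (reads divided by the library's size factor). A difference is the intestinal mean minus the marrow mean of the deposited log2-scale values, with its standard error (SE), tested with limma and adjusted over all 38392 genes by the Benjamini-Hochberg method, with a threshold of 0.05.

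The labelled cell type was checked against marker lists before the comparison. In the intestinal libraries the eosinophil receptor genes Ccr3 and Il5ra ranged from 13285 to 19653 and from 894 to 1415, whereas in the bone marrow libraries they ranged from 45.9 to 102 and from 4.78 to 17.7. The granule protein genes Epx, Prg2 and Prg3 were the other way round. Epx ranged from 303 to 398 in bone marrow and from 12.5 to 29.5 in small intestine. Prg2 ranged from 1417 to 2337 and from 116 to 206, and Prg3 from 35.2 to 64.1 and from 1.39 to 9.48. Siglecf, whose product both gates select, ranged from 489 to 642 in bone marrow and from 2646 to 3820 in small intestine. The 6 eosinophil markers summed to 2394–3387 in bone marrow and 16963–25132 in small intestine. The 12 markers of neutrophil precursors summed to between 377686 and 474777 in bone marrow and to between 572 and 674 in small intestine, and Mpo, the myeloperoxidase gene of the primary granules of neutrophil precursors, alone reached 127019 to 174314 in bone marrow. Of these 12 markers 11 were lower in small intestine and Mmp8 was higher. In all 4 bone marrow libraries neutrophil precursor transcripts thus far exceeded those of eosinophils, which goes against the label, although eosinophil genes were detected. Ly6g, whose product the marrow gate excludes, was low there (71.3 to 139.6). These libraries are called bone marrow libraries below, for the tissue and the gate.

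Other marker lists moved with the tissue as well. The 7 stem and progenitor markers summed to 10297–12837 in bone marrow and 3066–5001 in small intestine, the 12 erythroid markers to 3151–4053 and 1064–1560, the 13 markers of intestinal epithelium to 255–541 and 5796–37597, and the 9 markers of macrophages and dendritic cells to 768–932 and 27300–34347. The summed B cell markers were lower in small intestine and those of T cells and of fibroblasts and endothelium were higher, and the plasma cell sum overlapped between tissues (2540–3064 and 1407–3827). Each of these sums except that of plasma cells (p = 0.857) separated the tissues in an exact 2-sided permutation test (p = 0.0286, the smallest that 4 against 4 libraries can give; 0.0317 after adjustment over the 10 lists). Single genes of a list did not always follow its sum, and 1 gene made up much of some mean sums. In the fibroblast and endothelium list, Pecam1 held 384 of 405 in bone marrow and 8162 of 8607 in small intestine. Its highest intestinal library was SI_11 and its lowest SI_6. Cd4 held 126 of 204 in the intestinal T cell sum. In the erythroid list, Tfrc held 2041 of 3512 and 1055 of 1238, while the globin gene Hbb-bs had means of 442 and 2.83. Of the plasma cell markers 3 of 5 were higher in small intestine, among them Jchain (10.7, 7.83, 10.5 and 29.7 in bone marrow and 2505, 1998, 353 and 1028 in small intestine), while Xbp1 was lower and Mzb1 did not pass the threshold. Of the stem and progenitor markers, Kit, Myb and Gfi1 were lower, Meis1 (17.7 to 55.2 and 1849 to 3119.7) and Cd34 were higher, and Flt3 and Hoxa9 did not pass. Most of the intestinal sum of macrophage and dendritic cell markers came from Itgax (9.78 to 35.3 and 12189.5 to 16613) and Adgre1 (132 to 179 and 12445 to 15498), and the other 7 genes summed to 577–746 in bone marrow and 1966–2666 in small intestine. Itgax and Adgre1 were highest in SI_11 and lowest in SI_6, as were the eosinophil markers Ccr3, Siglecf and Il5ra. C1qa, C1qb, C1qc, Mrc1 and Cx3cr1 were highest in SI_6, Csf1r in SI_11 and Cd68 in SI_7. Which cells carried Itgax and Adgre1 was not tested. Of this list 8 of 9 genes were higher, as were 12 of 13 for epithelium and 6 of 6 for fibroblasts and endothelium. So were 3 of 7 T cell markers, whereas 10 of 12 erythroid and 4 of 9 B cell markers were lower. Over all genes, 22.0% passed as higher and 12.9% as lower. For the 16215 genes whose mean reached 10 reads these shares were 34.6% and 28.6%. Beside the latter shares the T cell and B cell counts, from short lists, say little on their own.

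No marker list had a gene at 0 in all libraries of a tissue. The part of these other cells in the differences below was not tested, and in bulk libraries fewer cells with a transcript and less of it per cell cannot be told apart.

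Of the 60 genes, 54 were lower in small intestine, 4 were higher and 2 did not pass the threshold. Over all genes, 12.9% were called lower and 22.0% higher, and among the 16215 genes whose mean reached 10 reads 28.6% were called lower and 34.6% higher. The libraries of the tissues did not overlap for 58 of the 60 genes. They did not overlap for 34.3% of all genes, and for 10923 of the 16215 genes whose mean reached 10 reads. The median difference of the 60 genes was -3.28, beside 0.37 over all genes and 0.12 over those whose mean reached 10 reads. Summed over the 60 genes, transcripts took 1.23–1.34% of the reads of the bone marrow libraries and 0.191–0.239% of those of the intestinal libraries. A few genes made up much of these sums. In bone marrow Cdk6 and Mki67 had means of 44236 and 29986 normalised counts, of 171032 in sum. In small intestine the largest means were those of Cdk6 (9669), Cdkn1a (4365), Mki67 (3646) and Cdkn1b (2728.5), of 33670 in sum.

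The fall was large for most of the 54 genes. It was at least 10-fold for 27 of them, between 5- and 10-fold for 19 and under 5-fold for 8, and the median gene kept 9.69% of its bone marrow level. Of the 16215 genes whose mean reached 10 reads, 2.94% were at least 10-fold lower. The 4 higher genes were Cdkn1a, Cdkn1b, Ccnd1 and Pttg1, and the 2 without a call were Ccnd2 and Kif23. The plot of normalised counts by library shows all 60 genes, and that of differences gives their standard errors.

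**Figure D1:**
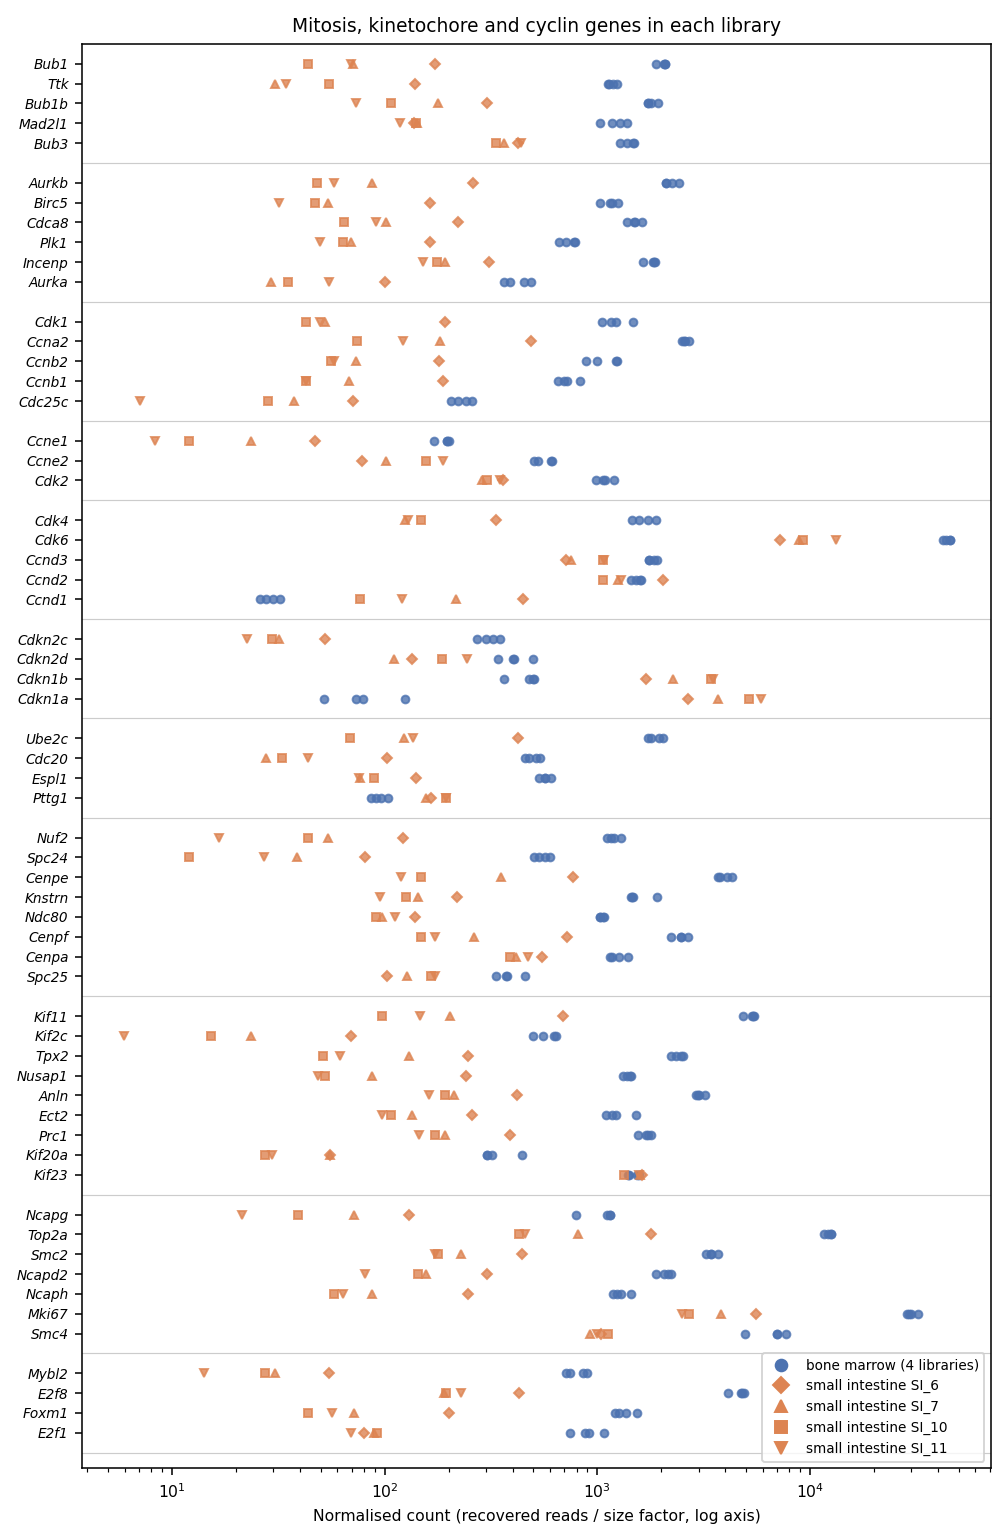
Normalised counts of the 60 genes in each of the 8 libraries, on a log axis, grouped by role (grey lines); circles are bone marrow libraries and the other marks the 4 intestinal libraries. For 58 genes the circles and the other marks do not overlap, and among the intestinal marks the diamond of SI_6 is the rightmost for 45 of the 54 lower genes.

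**Figure D2:**
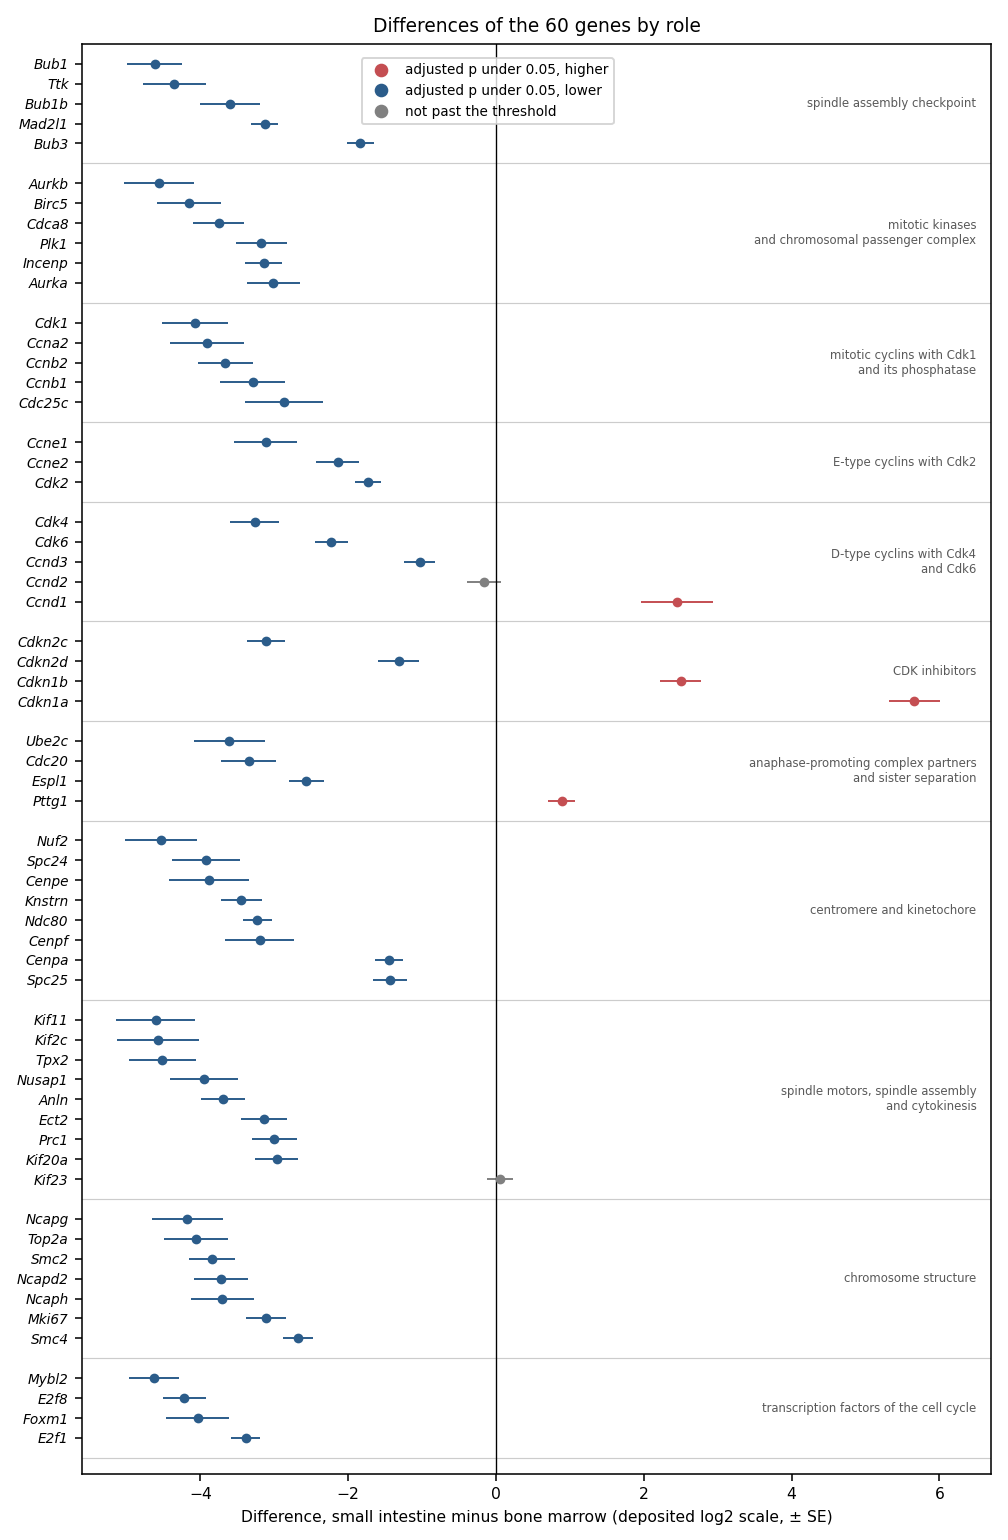
Difference between small intestine and bone marrow for each gene (deposited log2 scale, limma, bars are ± 1 SE, n = 4 libraries a tissue), ordered within each role. Values run from -4.63 for Mybl2 to 5.66 for Cdkn1a, and only 4 genes lie to the right of 0 with an adjusted p under the threshold, of which Pttg1 turns to -0.01 when libraries are centred on their medians.

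The cyclins and the kinase that drive entry into mitosis all fell, 5 of 5, with a median difference of -3.67. Cdk1 (chr10:69335146-69352938 of GRCm38, minus strand), the kinase that A- and B-type cyclins activate, was measured at 1158, 1225, 1475 and 1051 in bone marrow and at 193, 52.7, 42.7 and 49.8 in small intestine. SI_6 stood well above the other intestinal libraries and still far below every bone marrow library, and the difference was -4.07 ± 0.45 (SE, adjusted p = 1.82e-04). Ccna2, Ccnb1 and Ccnb2, which encode cyclins A2, B1 and B2, kept 8.34%, 11.8% and 8.46% of their bone marrow means. Cdc25c, the phosphatase that removes the inhibitory phosphates from CDK1, had the smallest fall of the group on the log2 scale, on which falls and rises are ranked throughout. It gave 257, 205, 221 and 241 in bone marrow and 71, 37.4, 28.4 and 7.11 in small intestine, a difference of -2.87 ± 0.53 (SE, adjusted p = 0.00290). Its intestinal values spread widely, from 71.0 in SI_6 to 7.11 in SI_11, and none reached the lowest of bone marrow.

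Promoters of genes with a peak in G2 and mitosis are known to carry a CHR element, bound by the DREAM and MMB complexes, often downstream of CCAAT boxes. RefSeq promoter windows (assembly GRCm38.p6, 250 bases before to 50 after a start) were matched by symbol for 48 of the 60 genes, 54 windows in all. Stretches of 140 bases before to 10 after the start are printed here, on the gene's strand and 5′ to 3′, for 4 genes that fell (Ccnb1, Cdk1, Plk1, Top2a), 1 without a call (Kif23) and 2 that rose (Cdkn1b, Pttg1), to set a window of each outcome side by side. They were chosen after the values were seen. Capitals mark CHR letters (TTTGAA or TTTAAA, or TTCAAA for the former on the other strand) and CCAAT boxes (CCAAT, or ATTGG on the other strand).
Ccnb1, chr13:100786477-100786626, minus strand: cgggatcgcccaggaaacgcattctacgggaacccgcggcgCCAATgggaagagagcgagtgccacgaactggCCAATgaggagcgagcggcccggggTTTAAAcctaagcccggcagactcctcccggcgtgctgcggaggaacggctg
Cdk1, chr10:69352903-69353052, minus strand: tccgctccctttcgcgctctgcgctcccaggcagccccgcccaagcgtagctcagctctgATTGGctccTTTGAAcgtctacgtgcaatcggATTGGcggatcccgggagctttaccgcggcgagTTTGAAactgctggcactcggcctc
Plk1, chr7:122159295-122159444, plus strand: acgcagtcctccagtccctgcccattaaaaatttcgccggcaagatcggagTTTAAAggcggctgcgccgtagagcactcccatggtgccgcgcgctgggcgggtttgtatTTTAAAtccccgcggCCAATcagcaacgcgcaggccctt
Top2a, chr11:99024180-99024329, minus strand: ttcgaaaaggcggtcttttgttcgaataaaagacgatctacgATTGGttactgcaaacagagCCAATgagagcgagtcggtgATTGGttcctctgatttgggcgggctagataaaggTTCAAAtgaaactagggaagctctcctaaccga
Kif23, chr9:61946790-61946939, minus strand: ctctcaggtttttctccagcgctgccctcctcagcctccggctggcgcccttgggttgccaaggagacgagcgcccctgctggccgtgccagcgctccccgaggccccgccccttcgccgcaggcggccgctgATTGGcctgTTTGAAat
Pttg1, chr11:43425972-43426121, minus strand: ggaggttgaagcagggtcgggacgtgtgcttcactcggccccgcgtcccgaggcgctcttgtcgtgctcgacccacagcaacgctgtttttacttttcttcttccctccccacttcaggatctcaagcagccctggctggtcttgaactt
Cdkn1b, chr6:134920261-134920410, plus strand: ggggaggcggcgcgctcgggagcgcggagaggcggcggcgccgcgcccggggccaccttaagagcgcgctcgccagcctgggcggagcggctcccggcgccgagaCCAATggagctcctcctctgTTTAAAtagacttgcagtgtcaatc

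In these stretches Ccnb1 held 1 CHR match and 2 CCAAT boxes, Cdk1 held 2 and 2, Plk1 held 2 and 1, and Top2a held 1 and 3. Kif23, with no difference called, and Cdkn1b, which was higher in small intestine, each held 1 of both, whereas Pttg1 held neither. The RefSeq starts used for Pttg1, Ccnb1 and Cdk1 lie inside the genes as GENCODE places them. For Pttg1 the whole window does, so its letters do not describe the bases before the GENCODE start at 43426251. Among windows not printed, those of Ccnd3, Cdca8 and Kif2c also lie inside their genes. For 35 of the 54 windows, the end of the window lay in a GENCODE transcript of its gene. Positions below are counted from the RefSeq start. Over the 54 windows, CHR letters were found in 35 (64.8%), compared with 27.6% of all 32851 windows of the same length. The form TTTGAA was in 30 of them (55.6%, against 17.9% of all windows) and TTTAAA, which reads the same on both strands, in 11 (20.4%, against 13.2%). CCAAT boxes were found in 35 windows (64.8%, against 37.4%). The E2F motifs searched (TTTGGCGC, TTTCGCGC, TTTGGCGG and TTTCCCGC, both strands) were in 4 windows (7.41%, against 2.37%). No motif of one family holds the letters of another.

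CHR letters lay close to the start. In the 25 bases after it they began in 12 of the 54 windows (22.2%, against 1.99% of all windows), whereas further out than 175 bases before it each 25-base bin held 1. CCAAT boxes were most frequent from 75 to 50 bases before the start, in 14 windows (25.9%, against 6.99%). Limited to bases before the start, CHR letters were in 25 windows (46.3%, against 25.2%) and CCAAT boxes in 34 (63.0%, against 33.8%). By outcome, 30 of the 44 lower genes with a window and 2 of the 4 others held CHR letters. These others include Pttg1, whose window lies inside the gene as GENCODE places it. Windows of 1 gene share sequence and are not independent, and a match is a description of the letters, not of a bound site.

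**Figure D3:**
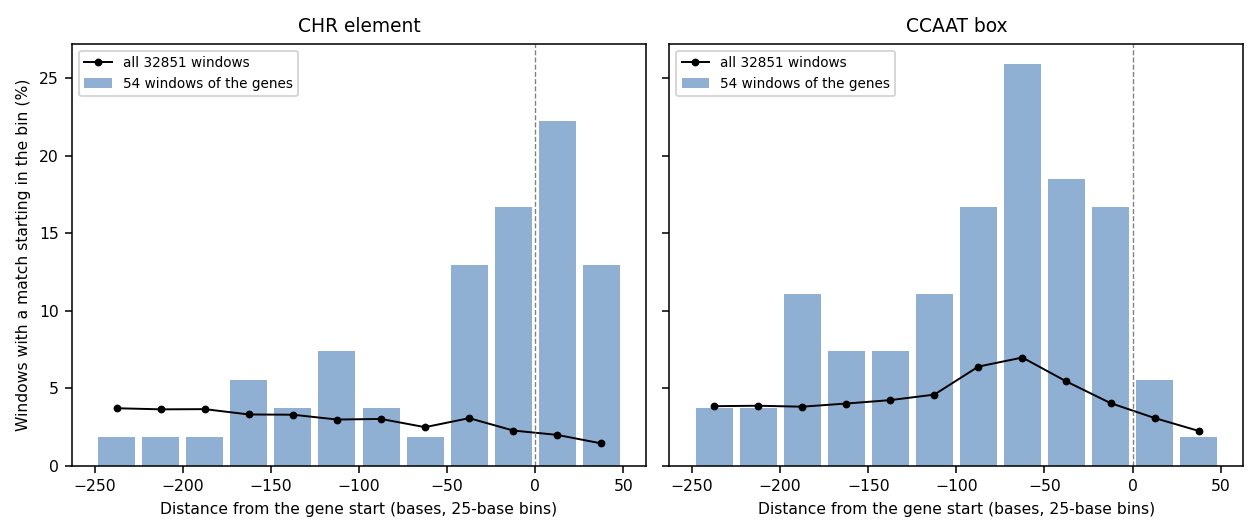
Share of RefSeq promoter windows (%) with a CHR match (left) or a CCAAT box (right) beginning in each 25-base bin, by distance from the gene start in bases; bars are the 54 windows of the described genes and the black line all 32851 windows. The CHR bars reach 22.2% in the first bin after the start, where all windows give 1.99%, and the CCAAT bars reach 25.9% from 75 to 50 bases before it, where all windows give 6.99%.

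The mitotic kinases and the chromosomal passenger complex fell in 6 of 6 genes, with a median difference of -3.47. Aurkb, the kinase of the passenger complex that corrects faulty attachments, had the largest fall, from 2240.3, 2095, 2432 and 2103 in bone marrow to 262, 87.4, 48.1 and 58.1 in small intestine. Every intestinal library was below every marrow library, and the difference was -4.56 ± 0.48 (SE, adjusted p = 1.38e-04). Its partners Birc5 (survivin), Cdca8 (borealin) and Incenp kept 6.44%, 7.96% and 11.5% of their marrow means. Plk1, the polo-like kinase that acts at centrosomes, kinetochores and in cytokinesis, kept 11.8%. Aurka, the kinase of the spindle poles, had the smallest fall of the group. It was at 453, 391, 489 and 366 in bone marrow and 100.4, 29.1, 35 and 54.5 in small intestine, again without overlap, a difference of -3.01 ± 0.36 (SE, adjusted p = 2.93e-04).

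All 5 checkpoint genes fell, with a median difference of -3.60. Bub1 (chr2:127801122-127831865 of GRCm38, minus strand), which encodes a kinase that recruits checkpoint proteins to kinetochores, went from 2076, 1884, 2081 and 2070.4 in bone marrow to 174, 70.7, 43.8 and 69.9 in small intestine. The difference was -4.62 ± 0.37 (SE, adjusted p = 3.37e-05), which leaves 4.41% of the marrow mean. Ttk, the MPS1 kinase that starts checkpoint signalling, and Bub1b, whose product BUBR1 is part of the inhibitor of the anaphase-promoting complex, kept 5.54% and 9.25%. Mad2l1 (MAD2), another part of that inhibitor, was even across small intestine at 138, 143, 141 and 119, 9.02-fold below bone marrow. Bub3, which carries BUB1 and BUBR1 to kinetochores, fell least. Its counts were 1379, 1482, 1468 and 1276 in bone marrow and 425, 365, 336 and 439 in small intestine, with no overlap and a difference of -1.84 ± 0.18 (SE, adjusted p = 1.00e-04).

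The 8 centromere and kinetochore genes all fell, with a median difference of -3.34, but by unequal amounts even within 1 complex. Nuf2, Ndc80, Spc24 and Spc25 encode the 4 subunits of the NDC80 complex, which binds microtubules, and their differences were -4.54, -3.23, -3.93 and -1.43. Nuf2 went from 1299, 1205, 1156 and 1107 in bone marrow to 122, 54.1, 43.8 and 16.6 in small intestine, a difference of -4.54 ± 0.49 (SE, adjusted p = 1.61e-04). Spc25 went from 334, 376, 455 and 372 to 103, 128, 165 and 173, a difference of -1.43 ± 0.23 (SE, adjusted p = 0.00137). Both were without overlap, but within small intestine SI_11 was the lowest library for Nuf2 and the highest for Spc25. The normalised count of Spc25 divided by that of Nuf2 was between 0.257 and 0.394 in the marrow libraries and was 0.839 in SI_6, 2.36 in SI_7, 3.78 in SI_10 and 10.4 in SI_11. It was higher in each intestinal library than in any marrow library, a description of a pair picked after its values were seen.

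Cenpa, the histone H3 variant that marks the centromere, also fell little beside the rest, from 1265, 1149, 1398 and 1172 in bone marrow to 551, 413, 389 and 475 in small intestine, a difference of -1.45 ± 0.19 (SE, adjusted p = 5.22e-04). Cenpe, a kinetochore motor, kept 8.76% of its marrow mean, Cenpf, a large protein of the outer kinetochore, 13.3%, and Knstrn (kinastrin), which helps align chromosomes, 9.30%. Ndc80 shares a stretch of 303 bases at 95.1% identity with the pseudogene 2700099C18Rik, whose own mean was 249 normalised counts, so part of its reads may be assigned to either.

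Among the spindle motors, spindle assembly factors and cytokinesis genes, 8 of 9 fell, and the median difference of the group was -3.70. Kif11, the motor that pushes spindle poles apart, had the largest fall on the log2 scale. It was at 4833, 5376, 5468 and 5352 in bone marrow and at 688, 202, 97.4 and 147 in small intestine, a difference of -4.60 ± 0.53 (SE, adjusted p = 2.38e-04). Kif2c, a kinesin that shortens microtubules, kept 4.93%, and Tpx2, which activates Aurora A on the spindle, 5.11%. The bundling proteins Nusap1 and Prc1 kept 7.74% and 13.2%, and Anln (anillin) and Ect2, which build the contractile ring and switch on its RhoA signal, kept 8.14% and 11.9%. Kif20a, a motor of the central spindle, had the smallest fall on the log2 scale, from 302, 319, 443 and 303 in bone marrow to 55.7, 55.5, 27.3 and 29.6 in small intestine, a difference of -2.96 ± 0.29 (SE, adjusted p = 9.67e-05). Its exons share 1271 bases with Cdc23 on the other strand, a gene with a mean of 626 normalised counts against 192 for Kif20a itself.

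Kif23 (chr9:61915905-61946774 of GRCm38, minus strand), which encodes the kinesin of the centralspindlin complex that Prc1 and Ect2 work beside, was the exception. It gave 1415, 1391, 1538 and 1565 in bone marrow and 1623, 1591, 1340.1 and 1578 in small intestine. The tissues overlapped, and SI_10 was the lowest of all 8 libraries. The difference of 0.05 ± 0.17 (SE, adjusted p = 0.838) did not pass the threshold, with a 95% confidence interval from -0.34 to 0.44, and its sign turned under centring on the library median (-0.85) and quantile normalisation (-0.14). Racgap1, the other centralspindlin subunit, fell with a difference of -3.40.

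Chromosome structure genes fell in 7 of 7 cases, with a median difference of -3.72. Mki67, which encodes the Ki-67 protein that coats mitotic chromosomes and is widely used to mark dividing cells, was at 29159, 30024, 28552 and 32209.6 in bone marrow and at 5578, 3809, 2695 and 2499.8 in small intestine, the highest of the latter being SI_6 and far below bone marrow. The difference was -3.11 ± 0.28 (SE, adjusted p = 5.65e-05). Top2a, the topoisomerase that untangles sister chromatids, kept 7.12% of its marrow mean. Among the 5 condensin genes, Ncapg had the largest fall, from 1144, 1151, 799 and 1110.0 in bone marrow to 129.9, 72.1, 39.4 and 21.3 in small intestine, a difference of -4.18 ± 0.48 (SE, adjusted p = 2.33e-04). Smc4 had the smallest, from 7003, 7042, 4943 and 7689 to 1046, 928, 1122 and 998, a difference of -2.68 ± 0.20 (SE, adjusted p = 2.44e-05). The intestinal libraries were close to each other for Smc4 and spread more for Ncapg. The other 3, Smc2, Ncapd2 and Ncaph, kept 7.42%, 8.24% and 8.84%. Exons of Ncapg share 944 bases with Lcorl on the other strand, whose mean of 1072 exceeds that of Ncapg, 558.

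The genes of the anaphase-promoting complex and of sister separation were split, with 3 of 4 lower. Ube2c, the ubiquitin-conjugating enzyme of the complex, fell most. It was at 1783, 2029, 1733 and 1943 in bone marrow and at 426, 123, 68.9 and 136 in small intestine, a difference of -3.61 ± 0.48 (SE, adjusted p = 5.43e-04). Cdc20, which activates the complex in mitosis, kept 10.4%. Espl1 (separase), the protease that cuts cohesin, fell from 530.2, 569, 605 and 567 to 141, 76.3, 89.7 and 75.9, a difference of -2.57 ± 0.24 (SE, adjusted p = 6.78e-05). Pttg1 (chr11:43420250-43426251 of GRCm38, minus strand), which encodes securin, the inhibitor of separase, did not follow them. It gave 91.2, 104, 86.1 and 95.8 in bone marrow and 166, 157, 195 and 194 in small intestine. All intestinal libraries were above all marrow libraries, with a difference of 0.89 ± 0.18 (SE, adjusted p = 0.00474) and a 1.89-fold higher mean, but centring libraries on their median turned it to -0.01, a scaling that moved the median of all genes from 0.37 to -0.53.

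The 4 transcription factors had the largest median difference of any role, -4.13. Mybl2 (chr2:163054687-163084688 of GRCm38, plus strand), which encodes B-MYB of the MMB complex, had the largest fall of the 60 genes. It was at 856, 746, 894 and 713 in bone marrow and 54.6, 30.5, 27.3 and 14.2 in small intestine. No library of one tissue came near those of the other, and the mean was 25.3-fold lower with a difference of -4.63 ± 0.34 (SE, adjusted p = 2.08e-05). Foxm1, which joins MMB at G2 and mitosis genes, and E2f8, a repressor of E2F target genes, kept 6.96% and 5.62%. E2f1, an activator of S phase genes, fell least, from 874, 1077, 919.6 and 742 to 79.7, 88.8, 91.9 and 69.9, a difference of -3.39 ± 0.20 (SE, adjusted p = 6.35e-06). Its intestinal libraries were close to each other, and SI_6 was not the highest.

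The genes that act in G1 and at the start of S phase differed more from each other. The E-type cyclins and their kinase all fell (3 of 3), with a median difference of -2.14. Ccne1 was at 197, 197, 199.99 and 170.1 in bone marrow and 46.9, 23.6, 12 and 8.30 in small intestine, a difference of -3.11 ± 0.43 (SE, adjusted p = 6.13e-04). Cdk2 was at 1086, 1061, 1201 and 990.1 in marrow and at 362, 287, 302 and 347 in the intestine, a difference of -1.73 ± 0.18 (SE, adjusted p = 1.31e-04), the smallest of the 3. Ccne2 fell with a difference of -2.14 ± 0.29 (SE, adjusted p = 5.90e-04), and its intestinal libraries ran in the opposite order to those of Ccne1, at 78.6, 101, 158 and 188. The ratio of Ccne2 to Ccne1 normalised counts was between 2.57 and 3.12 in bone marrow and between 1.67 and 22.7 in small intestine, so the tissues overlapped in it. Ccne2 shares 609 exonic bases with Ints8 on the other strand, which had the higher mean (1141 against 347).

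The 3 D-type cyclin genes each went a different way. Ccnd1 (chr7:144929931-144939925 of GRCm38, minus strand), cyclin D1, was at 32.2, 30, 27.8 and 26 in bone marrow and at 446, 218, 76.6 and 121 in small intestine. Every intestinal library exceeded every marrow library, SI_6 most, and the difference was 2.45 ± 0.48 (SE, adjusted p = 0.00432), a 7.43-fold higher mean. Ccnd2 (chr6:127125162-127152193 of GRCm38, minus strand), cyclin D2, was at 1514, 1589, 1602 and 1438 in bone marrow and at 2029, 1255, 1069 and 1288 in small intestine. Only SI_6 exceeded the marrow libraries, the other intestinal libraries were below them, and the difference of -0.16 ± 0.23 (SE, adjusted p = 0.600) did not pass the threshold, with a 95% confidence interval from -0.70 to 0.37. Ccnd3 (chr17:47505051-47599691 of GRCm38, plus strand), cyclin D3, was at 1744, 1849, 1916 and 1756 in bone marrow and 709.5, 750.2, 1068 and 1079 in small intestine, without overlap, a difference of -1.03 ± 0.21 (SE, adjusted p = 0.00507).

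Levels per kb of exons use all annotated exons of a gene joined, not the transcripts made. Shares and ranks of genes on this scale are therefore approximate, here and below. Ccnd1 made up 1.64% ± 0.165 (SD, n = 4) of the summed D-type cyclin level in bone marrow. In small intestine it made up 14.3% ± 8.12, with 24.2% in SI_6 and 6.47% in SI_10. Ccnd2 made up 43.4% ± 0.583 and 49.6% ± 4.21, and Ccnd3 55% ± 0.720 and 36.1% ± 12.3. SI_6, where Ccnd1 was highest, was also the library with the highest epithelial marker sum. Ccnd1 shares 1100 exonic bases with LTO1 on the other strand, which had the higher mean (225 against 122), and the counting was not stated to use strand. The part of either in the values of Ccnd1 was not tested, and without SI_6 the mean of Ccnd1 in small intestine was 138 ± 72.2 (SD, n = 3).

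Both kinases of D-type cyclins fell. Cdk6 (chr5:3341485-3531008 of GRCm38, plus strand) was at 45532, 43769, 45353 and 42291 in bone marrow and at 7250.2, 8895, 9329 and 13201 in small intestine. Per kb of exons it had the highest level of the 60 genes in bone marrow, 3162 beside 2980 for Mki67. In small intestine Cdkn1a alone was above it. The difference was -2.23 ± 0.22 (SE, adjusted p = 1.03e-04), with SI_6 the lowest of the intestinal libraries. Cdk4 was at 1739, 1567, 1887 and 1462 in bone marrow and 335, 125, 149 and 129 in small intestine, with SI_6 the highest, a difference of -3.27 ± 0.33 (SE, adjusted p = 1.10e-04). Per kb, Cdk6 made up 86.1% ± 0.984 (SD, n = 4) of the 2 kinases in bone marrow and 91.8% ± 5.69 in small intestine. The tissues overlapped in this share. It was 84.8–87.0% in the marrow libraries, 83.4% in SI_6, and 94.3%, 93.6% and 96.0% in SI_7, SI_10 and SI_11.

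CDK inhibitors held the largest rise. Cdkn1a (chr17:29090976-29100727 of GRCm38, plus strand), which encodes p21, an inhibitor of CDK2 complexes that p53 and other signals induce, was at 73.6, 125, 79.4 and 52.1 in bone marrow and at 2673, 3717, 5167 and 5905 in small intestine. Every intestinal library lay far above every marrow library, and the mean was 52.9-fold higher, a difference of 5.66 ± 0.34 (SE, adjusted p = 7.45e-06). Cdkn1b (chr6:134920401-134925513 of GRCm38, plus strand), which encodes p27 and holds CDK2 inactive in resting cells, was at 480.4, 498, 366 and 507 in the marrow libraries and at 1691, 2283, 3442 and 3499 in the intestinal ones, a 5.89-fold higher mean and a difference of 2.50 ± 0.28 (SE, adjusted p = 2.10e-04). For both genes SI_6 was the lowest of the intestinal libraries.

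The other 2 inhibitors of the set, of the INK4 family that binds CDK4 and CDK6, fell. Cdkn2c (p18) was at 273, 325, 347 and 299 in bone marrow and at 52.4, 31.9, 29.5 and 22.5 in small intestine, a difference of -3.11 ± 0.26 (SE, adjusted p = 3.92e-05). Cdkn2d (p19) was at 406, 499.5, 401 and 341 in the first tissue and at 134, 111, 187 and 243 in the second, without overlap, a difference of -1.32 ± 0.28 (SE, adjusted p = 0.00599). Per kb of exons, the share of each inhibitor differed between tissues. In bone marrow Cdkn2d made up 51.9% ± 2.92 (SD, n = 4) of the summed level, Cdkn2c 23.2% ± 2.85, Cdkn1b 20.4% ± 3.47 and Cdkn1a 4.53% ± 1.16. In small intestine Cdkn1a made up 62.9% ± 1.46, Cdkn1b 30.7% ± 1.14, Cdkn2d 5.57% ± 1.13 and Cdkn2c 0.777% ± 0.566.

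**Figure D4:**
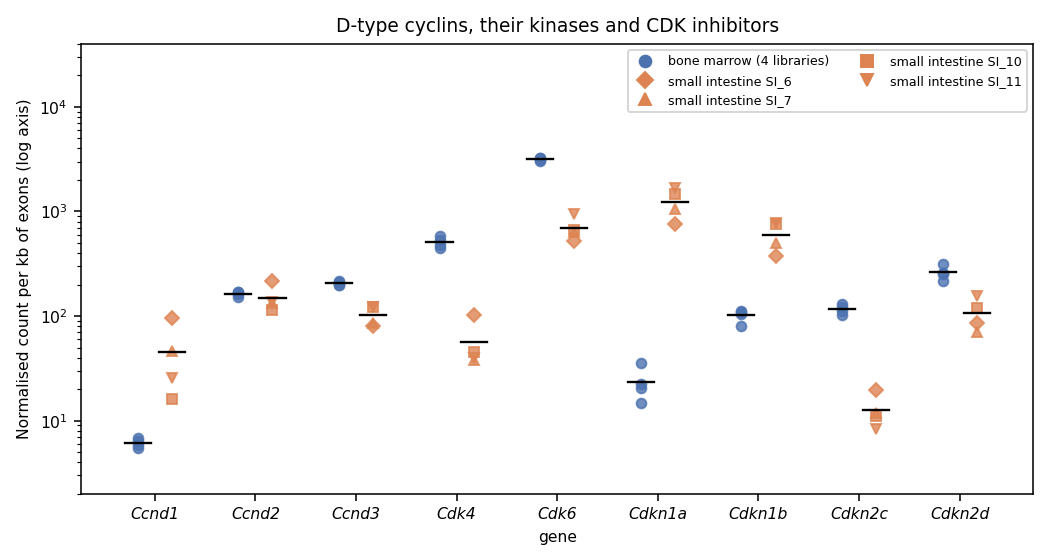
Normalised counts per kb of exons, on a log axis, of the D-type cyclins, CDK4 and CDK6 genes and 4 CDK inhibitors; circles are the 4 bone marrow libraries, other marks the 4 intestinal libraries, and black lines the means. Cdkn1a and Cdkn1b are higher in every intestinal library, Cdkn2c, Cdkn2d, Cdk4, Cdk6 and Ccnd3 are lower in every one, and Ccnd2 overlaps.

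The intestinal libraries were not alike in what was left of the 54 lower genes. SI_6 was the highest intestinal library for 45 of them, compared with 33.9% of genes whose mean reached 10 reads, and its level was a median of 2.54 times the mean of the other 3 (range 0.527 to 4.68), at least 2 times for 36 genes. Over genes whose mean reached 10 reads the median ratio was 0.986. Relative to the intestinal mean, the median deviation of the 54 genes was 0.998 log2 units in SI_6, -0.07 in SI_7, -0.35 in SI_10 and -0.46 in SI_11, whereas the marrow libraries lay between -0.06 and 0.07. The median coefficient of variation of the 54 genes was 7.48% in bone marrow, 58.5% in small intestine and 24.2% in small intestine without SI_6.

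The 13 epithelial markers summed to 37597 in SI_6, 17141 in SI_7, 5796 in SI_10 and 6374 in SI_11, and Krt19, Epcam and Krt8 among them were each highest in SI_6 and next highest in SI_7. SI_6 was also the highest intestinal library for markers of other cells: all 13 epithelial markers, 5 of 6 of fibroblasts and endothelium (Col3a1 at 259.8, 137, 51.4 and 45), 4 of 5 of plasma cells (Jchain at 2505, 1998, 353 and 1028), 5 of 9 of macrophages and dendritic cells, 3 of 12 erythroid, 2 of 9 B cell, 2 of 7 T cell, 2 of 12 neutrophil precursor, 1 of 7 stem and progenitor and 0 of 6 eosinophil markers. Among stem and progenitor markers Myb also stood higher in SI_6 (433, 126, 104 and 94.8 in the 4 intestinal libraries), whereas Kit stood lowest there (536, 914, 1817 and 1489). The lower genes that were lowest in SI_6 were Ccne2, Ccnd3, Cdk6 and Spc25, 4 of 54. Without SI_6, 54 genes were still lower and 4 higher, with a median difference of -3.63, and without SI_6 and SI_7 together the counts were again 54 and 4 and the median difference -3.73. The joint exclusion was chosen after the values were seen, and the part of epithelial, plasma, stromal or other cells in the remaining level was not tested.

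**Figure D5:**
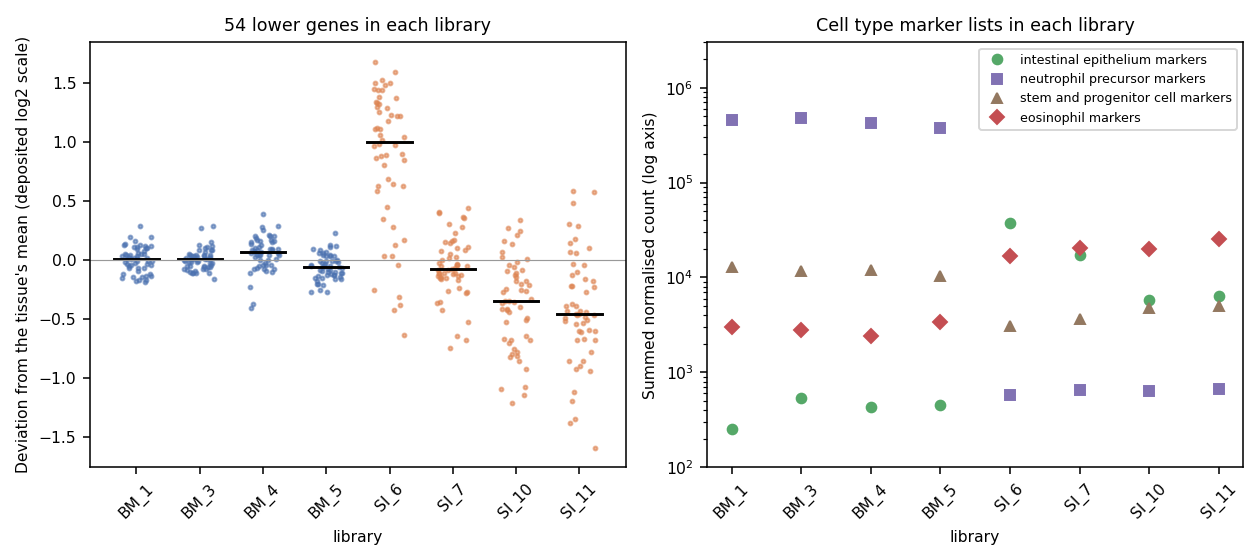
Left, deviation of each of the 54 lower genes from its tissue's mean on the deposited log2 scale, by library, with the median as a black line; right, summed normalised counts of 4 marker lists by library, on a log axis. The median reaches 0.998 in SI_6 and stays between -0.46 and 0.07 in the other 7 libraries, and the epithelial sum is 37597 in SI_6 against 5796 in SI_10 and 255–541 in bone marrow, where the neutrophil precursor sum is 377686–474777.

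A further 131 genes of the same processes were examined with the same fit. Of these, 101 were lower, 10 were higher and 20 did not pass the threshold, with a median difference of -2.05. The higher genes numbered 2 when libraries were centred on their medians and 2 when tested against a difference of 1 log2 unit. Spindle, kinesin and cytokinesis genes fell in 28 of 29 cases (median -3.56) and further kinetochore genes in 32 of 36 (median -2.55). Anaphase-promoting complex subunits and regulators fell in 10 of 17 cases (median -0.84), cohesin and condensin II genes in 9 of 16 (median -0.99), CDK regulators in 11 of 17 (median -1.10) and pocket protein, E2F and DREAM genes in 11 of 16 (median -1.46).

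The 5 largest falls of the further genes were Cks1b, a small subunit of CDK complexes (-5.48), the spindle motor Kif15 (-4.85), the centromere protector Sgo2a (-4.81), the kinetochore gene Cenph (-4.67) and Fbxo5 (-4.56), the EMI1 inhibitor of the anaphase-promoting complex. Cks1b was at 1285, 1104, 1196 and 950.1 in bone marrow and 65.5, 22.2, 14.2 and 9.48 in small intestine. It fell 40.7-fold, more than any of the 60 genes. Fzr1, the activator that keeps the same complex on in G1, rose with a difference of 0.68 ± 0.21 (SE, adjusted p = 0.0324), which turned to -0.22 when libraries were centred on their medians. Of the 10 higher further genes, 5 had a sign change under that centring (Cenpl, Fzr1, Nipbl, Rbl2 and Lin54), and Nipbl alone under quantile normalisation.

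The largest rise of the further genes was that of Ccng2, the atypical cyclin G2 of arrested cells, from 394, 355, 405 and 340.3 in bone marrow to 4591, 5995, 7937 and 8788 in small intestine, a difference of 4.14 ± 0.24 (SE, adjusted p = 6.64e-06). Cdkn2b, the INK4 inhibitor p15, was at no more than 1.86 in the marrow libraries and at 97.1, 65.2, 31.7 and 19 in small intestine, highest in SI_6 and next in SI_7, with a difference of 3.65 ± 0.45 (SE, adjusted p = 3.46e-04). E2f5 (1.71) and the cohesin loader Mau2 (1.26) followed. Their differences were 0.81 and 0.36 with libraries centred on their medians, where neither passed the threshold. Cdkn2a also passed the threshold, but it had no read in bone marrow and at most 2.19 normalised counts in an intestinal library, under the limit that a count of 0 allows (3 reads per library), so no fold is given.

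The retinoblastoma family did not move as 1 group. Rbl1 (p107), a member that is itself made in cycling cells, was at 1862, 1789, 2145 and 1758 in bone marrow and 370.04, 266, 202 and 243 in small intestine, a difference of -2.82 ± 0.23 (SE, adjusted p = 3.31e-05). Rbl2 (p130), the DREAM subunit of resting cells, was at 1316, 1123, 1378 and 1208 in marrow and at 1893, 2363, 2252 and 2724 in the intestine, a difference of 0.87 ± 0.19 (SE, adjusted p = 0.00750) that turned to -0.03 when libraries were centred on their medians. Rb1 was at 1553, 1553, 1524 and 1539 in marrow and at 1972, 2281, 1902 and 2128 in the intestine, and although every intestinal library exceeded every marrow library, its difference of 0.42 ± 0.17 (SE, adjusted p = 0.0852) did not pass the threshold, with a 95% confidence interval from 0.04 to 0.80.

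Of the 60 genes, 19 share exonic bases with another gene of the table, 18 of them on the opposite strand, and 6 have a near-identical copy (at least 95% identity over at least 300 bases). Apart from 2700099C18Rik beside Ndc80, the copies with a row had means of at most 5.35 normalised counts.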

How the data were processed

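RNA of 4 libraries per tissue was amplified with the NuGEN Ovation system and sequenced single-ended on an Illumina HiSeq instrument. The authors aligned reads to GRCm38 (Ensembl release 86) and counted genes with nf-core/rnaseq, ran DESeq2 in R 4.0.3 and deposited its variance-stabilised values, which are on a log2 scale, for 38392 genes. A strand setting was not given in the sources used here. Column names give the tissue and match no single sample, so libraries carry no replicate number or pairing. Inverting the transformation gave whole reads for 100% of values within 0.05 reads, with size factors, for the levels in the text. Depth was 11508002 to 21289164 reads a library.

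The study fitted counts, but deposited values are on a log2 scale, so limma 3.58.1 in R 4.3.3 took the place of a count model (all 8 libraries, constant prior, no filter, 2-sided, Benjamini-Hochberg over all genes). P-values measure the spread between these libraries, from 4 mice a tissue. The fit was tested on simulated data in which few genes changed, equally up and down. Many more genes differed in the real data, so the simulation cannot give the share of false calls here. In it, unchanged genes that were called lay nearly all below a mean of 10 reads, so counts are also given above it. Summed markers were compared with exact 2-sided permutation tests. Exon coordinates, lengths and overlaps came from GENCODE M21 (GRCm38), copies from blastn 2.17.0, and promoters from RefSeq. Described in full are the extremes of each role, D-type cyclins with their kinases, CDK inhibitors and genes whose tissues overlap, and, of the further genes, the 5 largest changes each way and the retinoblastoma family. Genes, lists and motifs were chosen with earlier results of these data known. No promoter window was matched for Ccne2, Kif20a, Aurkb, Ccnd2, Spc24, Smc4, Ccna2, Incenp, Foxm1, Cdc25c, Ccnd1 and Tpx2.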

Additional observations from a re-analysis of the deposited data

Results flagged for a closer look

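Of 140 sets of 4 libraries (each gene of the set in each tissue, and the marker sums), 9 had 1 library set apart from the other 3, where chance alone gives about 1 in 20, or 7. The measure is the gap between that library and its neighbour as a share of the whole range, set against Dixon's 95% critical value.

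In bone marrow, BM_3 stood below the rest for Bub1 (0.947), BM_5 for Incenp (0.858) and Ccne1 (0.904), and BM_4 for Cdkn1b (0.835) and Ncapg (0.901). BM_1 stood above the rest for Knstrn (0.903) and BM_4 for Kif20a (0.857). In small intestine, SI_6 stood above the rest for Cdk1 (0.864) and SI_10 below the rest for Kif23 (0.851). For each gene but Kif23 the tissues did not overlap.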

How the results depend on the processing

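Each of the 60 genes was fitted under 16 alternatives, among them voom on the recovered reads, log2(normalised count + 1), a trended prior, centring on library medians, quantile normalisation, a filter at a mean of 10 reads, a test against a difference of 1 log2 unit and leaving out each library in turn. Of 960 values, 950 kept their direction and side of the threshold, 6 fell under it and 4 changed sign, and 53 genes kept both under every alternative. The 6 all came from the test against 1 log2 unit (Ccnd1, Ccnd3, Cdkn2d, Pttg1, Cenpa and Spc25). It left 2 of the 60 genes and 2 of the 131 further genes higher, and 5076 of all genes called in either direction, in place of 4, 10 and 13402. Centring on library medians gave a median difference of -4.18, Pttg1 at -0.014, Kif23 at -0.85 and 2 further genes higher. It moved the median of all genes from 0.37 to -0.53. Quantile normalisation put Kif23 at -0.14. Leaving out SI_6 and SI_7 together, chosen after seeing the data, gave a median difference of -3.73 and Kif23 at -0.021. The cause of these changes was not tested, except that the stricter test asks for a larger difference. Leaving out 1 library at a time kept 54 lower and 4 higher genes.

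The analysis was unpaired, since the sample titles give marrow and intestinal samples different mouse numbers and the columns match no single sample. Depth limits genes with few reads more than the 60 genes, whose mean was at least 110 reads.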
